A study of Mus musculus with 8 samples.

Results

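The genes described here make, regulate or move cholesterol: 28 genes of cholesterol synthesis, of the sterol-sensing SREBP system and of sterol uptake and esterification. They were listed by their known function, with no threshold on a measured value, although earlier results of these data were known when the list was made. All 28 have a row among the 23366 gene symbols counted in every library (Msmo1 under its older symbol Sc4mol). RNA was sequenced from mouse intestinal epithelial cells, 50000 sorted cells per library. All animals were male littermates, 6 weeks old, and all carried Sox4fl/fl, Sox4 alleles that Cre recombinase can delete. Those named control carried these alleles alone. Those named Sox4cKO also carried vilCre+/-, a Cre transgene driven by the villin promoter, which is active in the intestinal epithelium. Cells positive for CD326, the epithelial surface protein encoded by Epcam, were sorted by CD44 into a CD44minus gate enriched for villus cells and a CD44plus gate enriched for crypt cells. Genotype and gate make 4 groups with 2 libraries each, and both gates of a given animal carry its replicate number, so there are 4 animals in all. Pairs of values below are replicate 1 and replicate 2 in that order, and where a gene's levels are set against each other within a gate, control stands before Sox4cKO. CPM is the reads of a gene, scaled to a common library total with factors from the trimmed mean of M values (TMM).

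Cholesterol is built from acetyl-CoA through mevalonate, isoprenoid diphosphates, squalene and lanosterol. When sterol in the endoplasmic reticulum is low, Scap carries the membrane-bound factors encoded by Srebf1 and Srebf2 to the Golgi, where they are cut and released to the nucleus to switch on the synthesis genes. When sterol is high, the Insig proteins hold Scap back. In the intestine, crypt cells divide and need sterol for new membrane, while mature enterocytes of the villus also take up dietary sterol through Npc1l1 and esterify it with Soat2 for export in chylomicrons.

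RefSeq promoter windows of 300 bases (GRCm38.p6, from 250 bases before to 50 after a transcript start) were found for 23 of the 28 genes. The windows are shown for the gene with the only exact sterol regulatory element, for the gene of the sterol-regulated factor itself, for 1 synthesis enzyme, and for Lbr and Npc1l1, whose levels differed most between the gates, in opposite directions, among the genes with a window. Capitals mark matches on either strand to the sterol regulatory element TCACNCCAC, the site that SREBPs bind, and to the CCAAT box (CCAAT, or ATTGG where it lies on the other strand), the site of NF-Y, a usual partner of SREBPs. Each sequence is given 5′ to 3′ on the strand of its gene. The windows lie at chr13:119690101-119690400 (plus strand) for Hmgcs1, chr15:82147019-82147318 (plus strand) for Srebf2, chr5:4104648-4104947 (minus strand) for Cyp51, chr1:181842352-181842651 (minus strand) for Lbr and chr11:6230196-6230495 (minus strand) for Npc1l1.
Hmgcs1: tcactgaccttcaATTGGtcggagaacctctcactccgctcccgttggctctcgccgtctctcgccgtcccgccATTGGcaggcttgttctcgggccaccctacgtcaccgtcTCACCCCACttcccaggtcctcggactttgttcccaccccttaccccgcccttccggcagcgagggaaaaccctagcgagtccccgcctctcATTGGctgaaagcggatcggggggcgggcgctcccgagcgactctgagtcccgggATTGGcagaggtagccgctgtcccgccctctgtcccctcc
Srebf2: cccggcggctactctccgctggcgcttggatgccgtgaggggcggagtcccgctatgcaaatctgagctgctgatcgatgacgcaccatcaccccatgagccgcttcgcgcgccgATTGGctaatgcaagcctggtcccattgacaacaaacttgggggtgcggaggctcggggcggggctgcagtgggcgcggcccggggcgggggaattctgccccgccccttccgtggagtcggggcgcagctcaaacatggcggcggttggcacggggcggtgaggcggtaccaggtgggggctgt
Cyp51: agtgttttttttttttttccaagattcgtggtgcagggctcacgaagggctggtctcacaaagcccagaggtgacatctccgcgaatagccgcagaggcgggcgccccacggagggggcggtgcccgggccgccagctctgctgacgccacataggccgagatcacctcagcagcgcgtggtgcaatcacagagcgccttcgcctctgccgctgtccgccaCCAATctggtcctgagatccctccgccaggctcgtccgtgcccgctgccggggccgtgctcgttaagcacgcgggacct
Lbr: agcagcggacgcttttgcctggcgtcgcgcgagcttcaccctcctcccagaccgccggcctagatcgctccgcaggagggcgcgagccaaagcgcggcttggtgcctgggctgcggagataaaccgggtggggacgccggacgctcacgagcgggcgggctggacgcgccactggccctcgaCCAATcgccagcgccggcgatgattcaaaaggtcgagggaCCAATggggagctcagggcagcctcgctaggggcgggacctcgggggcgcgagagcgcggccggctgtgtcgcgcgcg
Npc1l1: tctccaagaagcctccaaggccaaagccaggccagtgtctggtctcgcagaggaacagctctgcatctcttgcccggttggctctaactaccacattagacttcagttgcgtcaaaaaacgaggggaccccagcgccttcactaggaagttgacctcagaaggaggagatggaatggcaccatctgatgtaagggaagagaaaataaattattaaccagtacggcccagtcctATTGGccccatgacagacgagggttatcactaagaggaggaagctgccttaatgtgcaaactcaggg

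A CCAAT box stood in at least 1 window of 21 of the 23 genes (91.3%), against 41.1% of the 27025 mouse genes with a window. Acat2 and Scap were the exceptions. The GC box GGGCGG, searched on both strands, was found in 20 of the 23 (87.0%), against 38.2% of all genes and 55.2% of the 14690 windowed genes whose expression was tested. The exact sterol regulatory element occurred in Hmgcs1 alone among the 23 (1.44% of all genes), 137 bases before the start. The Sox motif AACAAAG was found in Hmgcs1 and Hsd17b7 (6.68% of all genes), and the E-box CACGTG, whose 2 strands read alike, in Dhcr7, Hsd17b7, Insig1, Sc5d and Scap (8.09%). No searched motif contains another, and a match describes letters, not binding.

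Gene counts per library ranged from 886194 to 6963345 in CD44minus and from 6007554 to 13238050 in CD44plus. At these totals 3 counts, the upper limit (95%, 1-sided) that a count of 0 allows, came to between 0.227 and 3.39 CPM before TMM scaling. Limits and intervals on reads cover counting error only. Sox4, the deleted gene, gave 1438 and 658 reads against 123 and 271 in CD44plus, and 10 and 21 against 4 and 1 in CD44minus. The gates carried their labelled cells. In CD44plus of control all 20 enterocyte markers tested, Alpi among them, had negative estimates (5 passed, beside 0.445% of all genes). All 15 crypt and stem cell markers had positive ones (7 passed, beside 2.01% of all genes), though Cd44, the sorting marker itself, is among the 15. Epcam was read in every library, yet T cell and mast cell markers were read too, most in CD44plus. Sox4cKO CD44minus replicate 2 stood apart from the other CD44minus libraries: the summed level of 8 general epithelial genes (Epcam, Cdh1, Krt8, Krt18, Krt19, Cldn7, Elf3 and Cdx2) was 14992 CPM there, against 2327 to 4902 CPM in the other 3. TMM scaling widens this gap, since the factor that divides CPM was 0.527 there against 1.09 to 1.72 in the other 3. Reads on the 8 genes were 55027 of 6963345 gene counts there. They were 3668 of 886194 and 12470 of 2327002 in control, and 4698 of 1175251 in Sox4cKO replicate 1. Background was gauged from reads on olfactory and vomeronasal receptor genes, whose products belong to sensory neurons of the nose. At their density, background would supply a median of 20.2 and 8.27% (control) or 18.3 and 0.997% (Sox4cKO) of the reads of the 27 counted pathway genes in CD44minus, and 0.286 to 1.39% in CD44plus. It would supply over 25% of the reads of 12 of the 27 in Sox4cKO CD44minus replicate 1 and of 8 in control CD44minus replicate 1. All results in the CD44minus gate rest on these unequal libraries.

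The first enzymes of the pathway turn acetyl-CoA into isoprenoid building blocks. Hmgcs1, which makes HMG-CoA, was listed at 0 in all 8 libraries, as were 672 genes in all, and no level is given for it. At the background density alone, 1.99 to 10.7 reads a library would be predicted for it. The 0 is therefore not read as absence of expression, and whether its reads were lost in counting was not tested. Acat2, the cytosolic thiolase of the first step, was at 4.04 and 9.83 against 5.94 and 10.6 CPM in CD44minus and 22.6 and 17.7 against 17.8 and 19.3 CPM in CD44plus. Its close paralog Acat3 can share reads with it, and 6 reads in control CD44minus replicate 1 carry its value there. Both CD44plus groups lay above both CD44minus groups for Acat2, and the genotypes overlapped within each gate.

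Mvk, mevalonate kinase, was at 13.5 and 9.83 against 13.9 and 33.8 CPM in CD44minus and 21.2 and 25.9 against 31.8 and 28 CPM in CD44plus. Pmvk, which adds the second phosphate, was at 15.5 and 20.05 against 17.8 and 50.1 CPM in CD44minus and 22.2 and 25.9 against 34.6 and 37.4 CPM in CD44plus. Mvd, the decarboxylase that yields isopentenyl diphosphate, was at 10.1 and 26.3 against 27.7 and 43.3 CPM in CD44minus and 22.1 and 25.2 against 30.5 and 32.8 CPM in CD44plus. For these 3 kinase and decarboxylase genes the Sox4cKO CD44plus libraries lay above the control CD44plus libraries without overlap, and Sox4cKO CD44minus replicate 2 was the highest of all 8.

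Isoprenoid synthesis then branches to sterols, prenylated proteins and ubiquinone. Idi1, the isomerase, was at 4.04 and 8.26 against 2.97 and 10.4 CPM in CD44minus and 8.4 and 10.8 against 10.8 and 8.24 CPM in CD44plus. In control CD44minus replicate 1 and Sox4cKO CD44minus replicate 1 its 6 reads each were no more than the predicted background. Fdps, which makes farnesyl diphosphate, was at 9.43 and 10.6 against 11.9 and 36.2 CPM in CD44minus and 26.7 and 23.7 against 33.7 and 27.2 CPM in CD44plus. Fdps was low in 3 CD44minus libraries and 23.7 CPM or more in the other 5. Ggps1, which makes geranylgeranyl diphosphate, was at 11.5 and 9.83 against 8.42 and 15 CPM in CD44minus and 11.7 and 20.6 against 21.7 and 22.6 CPM in CD44plus.

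Squalene is formed, oxidised and closed into the first sterol ring by Fdft1, Sqle and Lss. Fdft1 was at 24.2 and 32.6 against 31.7 and 83.4 CPM in CD44minus and 54.8 and 44.6 against 67.2 and 57 CPM in CD44plus. Sqle, a rate-limiting step, was at 18.2 and 33.4 against 27.7 and 99.7 CPM in CD44minus and 68.2 and 64.1 against 82.6 and 62.1 CPM in CD44plus. Lss, lanosterol synthase, was at 22.2 and 18.1 against 19.8 and 49.6 CPM in CD44minus and 32.1 and 29.4 against 48 and 44 CPM in CD44plus. The 3 genes shared one order of libraries: 3 CD44minus libraries low, the CD44plus libraries in between, and Sox4cKO CD44minus replicate 2 highest. Fdft1 and Lss separated the genotypes in CD44plus, while Sqle overlapped there.

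From lanosterol to cholesterol, Cyp51 removes the 14-alpha methyl group and was at 26.9 and 44.4 against 40.1 and 120.1 CPM in CD44minus and 84.2 and 72.3 against 112 and 105 CPM in CD44plus. The next step, reduction of the sterol double bond left by Cyp51, can be done by either of 2 proteins. Tm7sf2, the enzyme dedicated to this step, was at 13.5 and 7.08 against 12.9 and 14.2 CPM in CD44minus and 5.81 and 8.77 against 14.9 and 9.76 CPM in CD44plus. Lbr, which has the same reductase activity and is also the lamin B receptor of the inner nuclear membrane (GRCm38 chr1:181815335-181843046), was at 10.8 and 33 against 17.8 and 59.4 CPM in CD44minus and 207 and 201 against 206 and 242 CPM in CD44plus. The 2 reductase genes thus had different profiles: Lbr was at 59.4 CPM or less in all CD44minus libraries and at 201 CPM or more in all CD44plus libraries, while Tm7sf2 stayed between 5.81 and 14.9 CPM in all 8.

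Msmo1, Nsdhl and Hsd17b7 strip the remaining methyl groups. Msmo1, the C4 methyl oxidase, was at 16.2 and 31.4 against 23.3 and 83.6 CPM in CD44minus and 44.4 and 36 against 67 and 51.7 CPM in CD44plus. Nsdhl was at 10.1 and 20.4 against 9.41 and 26.4 CPM in CD44minus and 23.4 and 25.9 against 31.5 and 25.1 CPM in CD44plus. Hsd17b7, the keto-reductase, ranged from 11.7 to 40.6 CPM over the 8 libraries and overlapped between groups in every comparison. The last enzymes shift and set the double bonds. Ebp, the isomerase, was at 14.1 and 33.8 against 9.41 and 73.8 CPM in CD44minus and 51.1 and 53.5 against 66.1 and 74.6 CPM in CD44plus. Sc5d, the desaturase, was at 22.2 and 31.4 against 28.7 and 95.6 CPM in CD44minus and 28 and 37.6 against 50.2 and 42.5 CPM in CD44plus. Dhcr7, which makes cholesterol from 7-dehydrocholesterol, was at 16.8 and 15.7 against 15.4 and 35.1 CPM in CD44minus and 33.1 and 44.4 against 40.5 and 46.4 CPM in CD44plus. Ebp and Sc5d lay higher in both Sox4cKO CD44plus libraries than in both controls, and Dhcr7 overlapped.

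Among the regulators, Srebf2, the main factor for cholesterol genes (GRCm38 chr15:82147181-82205379), was at 69.4 and 121 against 84.2 and 333 CPM in CD44minus and 233 and 236 against 282 and 347 CPM in CD44plus. Srebf1, which favours fatty acid genes, was at 47.2 and 92 against 49.5 and 207 CPM in CD44minus and 101 and 97.5 against 115 and 141 CPM in CD44plus. Both were higher in each Sox4cKO CD44plus library than in each control CD44plus library. Scap was at 33 and 41.3 against 23.8 and 76.8 CPM in CD44minus and 94.1 and 94.1 against 95.7 and 119 CPM in CD44plus. Insig1, itself an SREBP target, was at 16.2 and 25.9 against 15.8 and 75.5 CPM in CD44minus and 56.6 and 43.3 against 58.1 and 51.4 CPM in CD44plus, and its paralog Insig2 at 24.9 and 32.2 against 23.3 and 46 CPM in CD44minus and 29.2 and 21.7 against 24.3 and 27.2 CPM in CD44plus. Insig1 was at least 43.3 CPM in the 4 CD44plus libraries and at most 25.9 CPM in 3 of the CD44minus libraries, whereas Insig2 overlapped between the gates.

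Stard4, a cytosolic sterol carrier, was at 39.7 and 82.2 against 32.7 and 196 CPM in CD44minus and 89.1 and 92.1 against 91.3 and 99 CPM in CD44plus. Npc1l1, the brush border sterol importer (GRCm38 chr11:6211013-6230143), was at 359 and 605 against 283 and 1383 CPM in CD44minus and 106 and 80.2 against 135 and 90.9 CPM in CD44plus. Soat2, the enterocyte and liver enzyme that esterifies cholesterol (GRCm38 chr15:102150526-102163469), was at 115 and 246 against 104 and 509.7 CPM in CD44minus and 27.8 and 35.1 against 37.5 and 51.7 CPM in CD44plus. Npc1l1 and Soat2 were higher in every CD44minus library than in every CD44plus library, the reverse of Lbr. Per kb of transcript, Npc1l1 and Soat2 had the highest levels of the set in both CD44minus groups, with means of 108 and 81.7 CPM per kb in control. Lbr and Srebf2 ranked highest per kb in both CD44plus groups, at 58.1 and 46.2 CPM per kb in control and 63.8 and 61.9 in Sox4cKO. In 14 of the 28 genes the annotation has another gene overlapping the locus (Cyp51 with Akap9 and Fdft1 with Ctsb on the opposite strand, Tm7sf2 with Vps51 on the same strand, for example), and since whether counting used strand is not given in the sources used here, reads from such partners cannot be told apart.

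**Figure D1:**
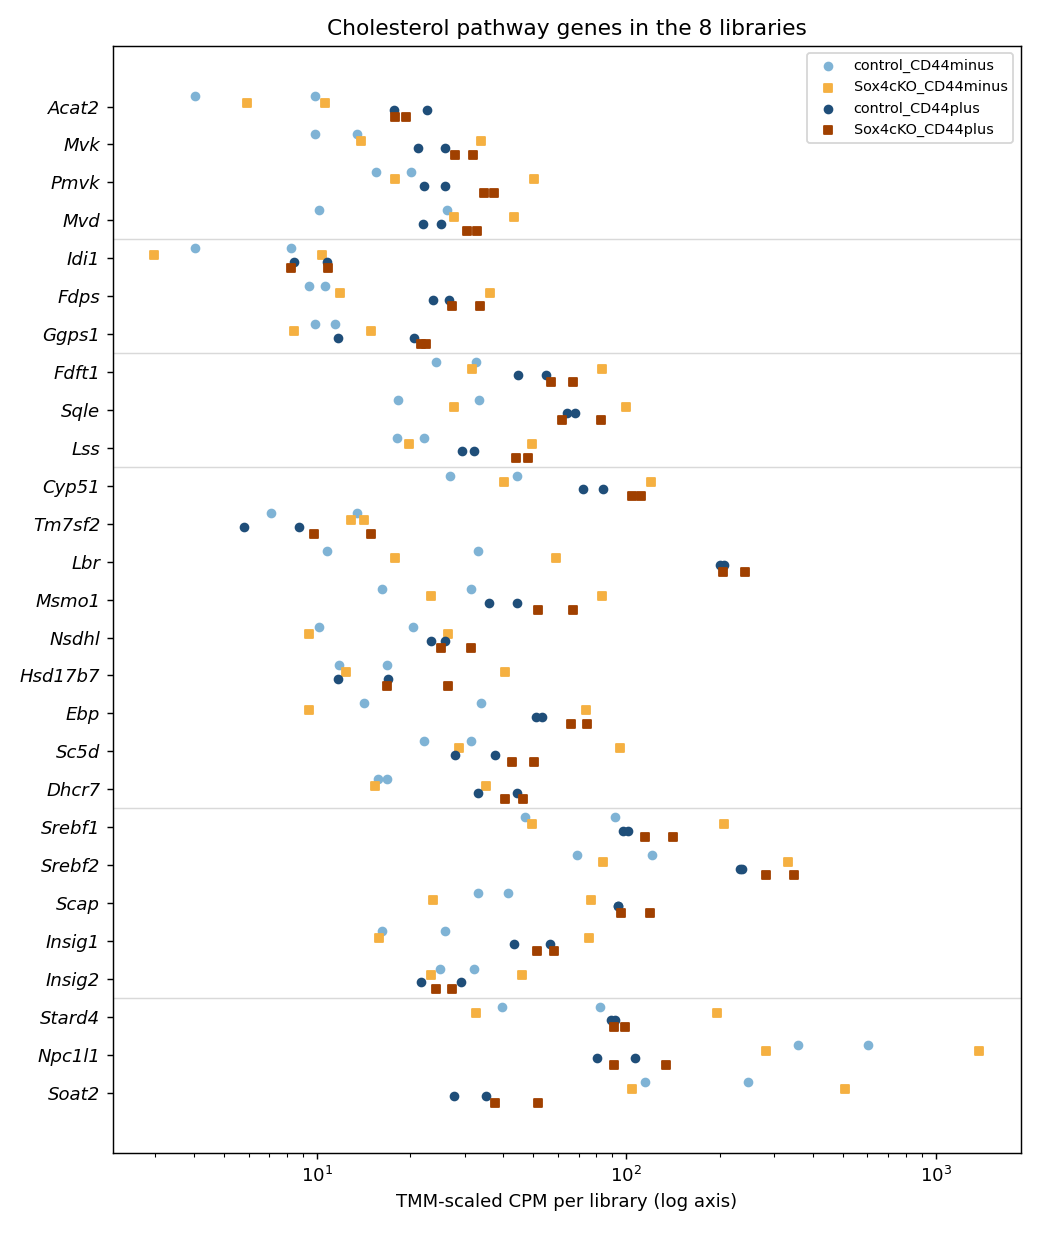
TMM-scaled CPM (log axis) of the 27 counted genes in the 8 libraries, 1 point per library, ordered by role with grey lines between roles. Lbr lies at 201 CPM or more in the 4 CD44plus libraries, Npc1l1 and Soat2 lie highest in the CD44minus libraries, and for most other genes 1 Sox4cKO CD44minus point (replicate 2) lies far right of the other.

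Whether loss of Sox4 altered the pathway in crypt-enriched cells was read from Sox4cKO against control in CD44plus. No pathway gene passed the test, and the estimates were at most of the order of their standard errors. Pmvk was estimated 1.5-fold higher (log2 fold change 0.58, SE 0.56), Lss 1.49-fold (0.58, SE 0.55), Msmo1 1.47-fold (0.56, SE 0.62), Cyp51 1.38-fold (0.46, SE 0.65) and Srebf2 1.34-fold (0.42, SE 0.81). The largest estimate, 1.69-fold for Tm7sf2, rests on levels of 14.9 CPM or less. Estimates at or near 0 were those of Insig2 (0.01), Idi1 (-0.01) and Stard4 (0.07).

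By role, 3 of 4 mevalonate genes, 2 of 3 isoprenoid genes, all 3 of squalene and ring closure, all 9 of lanosterol to cholesterol, all 5 regulators and all 3 of uptake and esterification had a positive log2 fold change in CD44plus. That is 25 of 27, beside 49.9% of all 20427 genes tested, and the median was 0.34 against -0.00 for all genes. The 2 negative estimates were Acat2 (-0.12, SE 0.65) and Idi1. In 16 of the 27 both Sox4cKO libraries lay above both controls, beside 14.2% of all genes: Mvk, Pmvk, Mvd, Fdps, Ggps1, Fdft1, Lss, Cyp51, Tm7sf2, Msmo1, Ebp, Sc5d, Srebf1, Srebf2, Scap and Soat2. In none did both lie below, beside 16.4% of all genes.

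With edgeR's quasi-likelihood test and Benjamini-Hochberg adjustment over all genes, 0 of the 27 genes and 0 of all genes (0%) passed an adjusted p of 0.05, and 0 of the 27 had an unadjusted p under 0.05, beside 0.627% of all genes. DESeq2 and limma-voom also called 0 of the 27. In a fit of the 4 CD44plus libraries alone, where the replicate spread is smaller, 0 of the 27 passed again while 17 other genes did, all lower in Sox4cKO (0.0997% of all genes). In that fit 6 of the 27 had an unadjusted p under 0.05, beside 5.07% of all genes: Cyp51, Ebp, Lss, Msmo1, Pmvk and Srebf2, with log2 fold changes from 0.42 to 0.59 (Lss 0.58, SE 0.20). A normal 95% interval of the log2 fold change in the 8-library fit ran from -1.17 to 2.02 for Srebf2 and from -0.50 to 1.66 for Lss. Both intervals hold 0 and 1, and both are narrower than the quasi-likelihood test would give. With 2 libraries a group, a single gene's exact permutation test cannot give a two-sided p below 0.333.

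In the alternative fits that follow the median stayed positive, while some single genes changed sign. Without Sox4cKO CD44plus replicate 1 19 of 27 had a positive estimate (36.5% of all genes) with a median of 0.16, while the median of all genes moved to -0.21. Scaled to the 8 epithelial genes, a setting added after the data were seen, 24 of 27 had a positive estimate (47.5% of all genes) with a median of 0.31. Per 1000 reads on those epithelial genes, the 24 counted synthesis and regulator genes together gave 187 and 192 reads against 212 and 253 in CD44plus, which do not overlap. No gene of the cell type marker lists passed in this comparison. Beside 49.9% of all genes, a positive estimate was found for 2 of 15 crypt and stem cell markers (median -0.29), 17 of 20 enterocyte markers (0.20), 14 of 14 T cell markers (0.57), 13 of 13 B, plasma and myeloid markers (0.78) and 7 of 7 mast cell markers (1.84). Summed mast cell markers were at 1909 and 3175 against 3676 and 17667 CPM, and no marker of that list was at 0 in any of these 4 libraries. The part of these cells in the pathway values was not tested, and in such bulk samples fewer cells of a type and less RNA per cell cannot be told apart.

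In the villus-enriched CD44minus gate no pathway gene passed either, and under TMM scaling the positive sign of the estimates rested on 1 library. The TMM factors of Sox4cKO CD44minus replicates 1 and 2, 1.72 and 0.527, were the largest and the smallest of the 8 libraries. Estimates for Sqle (1.30, SE 0.67), Fdps (1.27, SE 0.61), Sc5d (1.21, SE 0.62), Cyp51 (1.17, SE 0.67) and Srebf2 (1.13, SE 0.83) were among the log2 fold changes, and all 27 were positive, beside 57.5% of all genes. Their median was 0.88, against 0.19 for all genes. In 3 of the 27, Mvk, Mvd and Fdps, both Sox4cKO libraries lay above both controls, beside 6.52% of all genes. By edgeR, 0 of 27 and 0 of all genes (0%) passed, and 0 of 27 had an unadjusted p under 0.05 (0.568% of all genes); DESeq2 and limma-voom called 0 of 27 too.

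Without Sox4cKO CD44minus replicate 2, 8 of the 27 were positive and the median was -0.20, against 50.5% positive and a median of 0.01 for all genes. Srebf2 then stood at -0.19 and Npc1l1 at -0.77. Without Sox4cKO CD44minus replicate 1 instead, 21 of the 27 passed as higher and none as lower, beside 27.5% and 10.2% of all genes, with a lone knockout library that is assumed to vary like the other groups. Scaled to the 8 epithelial genes, 10 of 27 were positive (30.3% of all genes) with a median of -0.11. Per 1000 epithelial reads the 24 synthesis and regulator genes summed to 191 and 147 against 229 and 115, so the knockout libraries lay on both sides of the controls. Epithelial genes, enterocyte markers and synthesis genes were all highest, in CPM, in Sox4cKO CD44minus replicate 2. CPM are raised there by a TMM factor of 0.527, against 1.09 to 1.72 in the other CD44minus libraries. Without TMM factors the summed synthesis genes would not be highest there. The part of background and cell content in these levels was not tested.

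**Figure D2:**
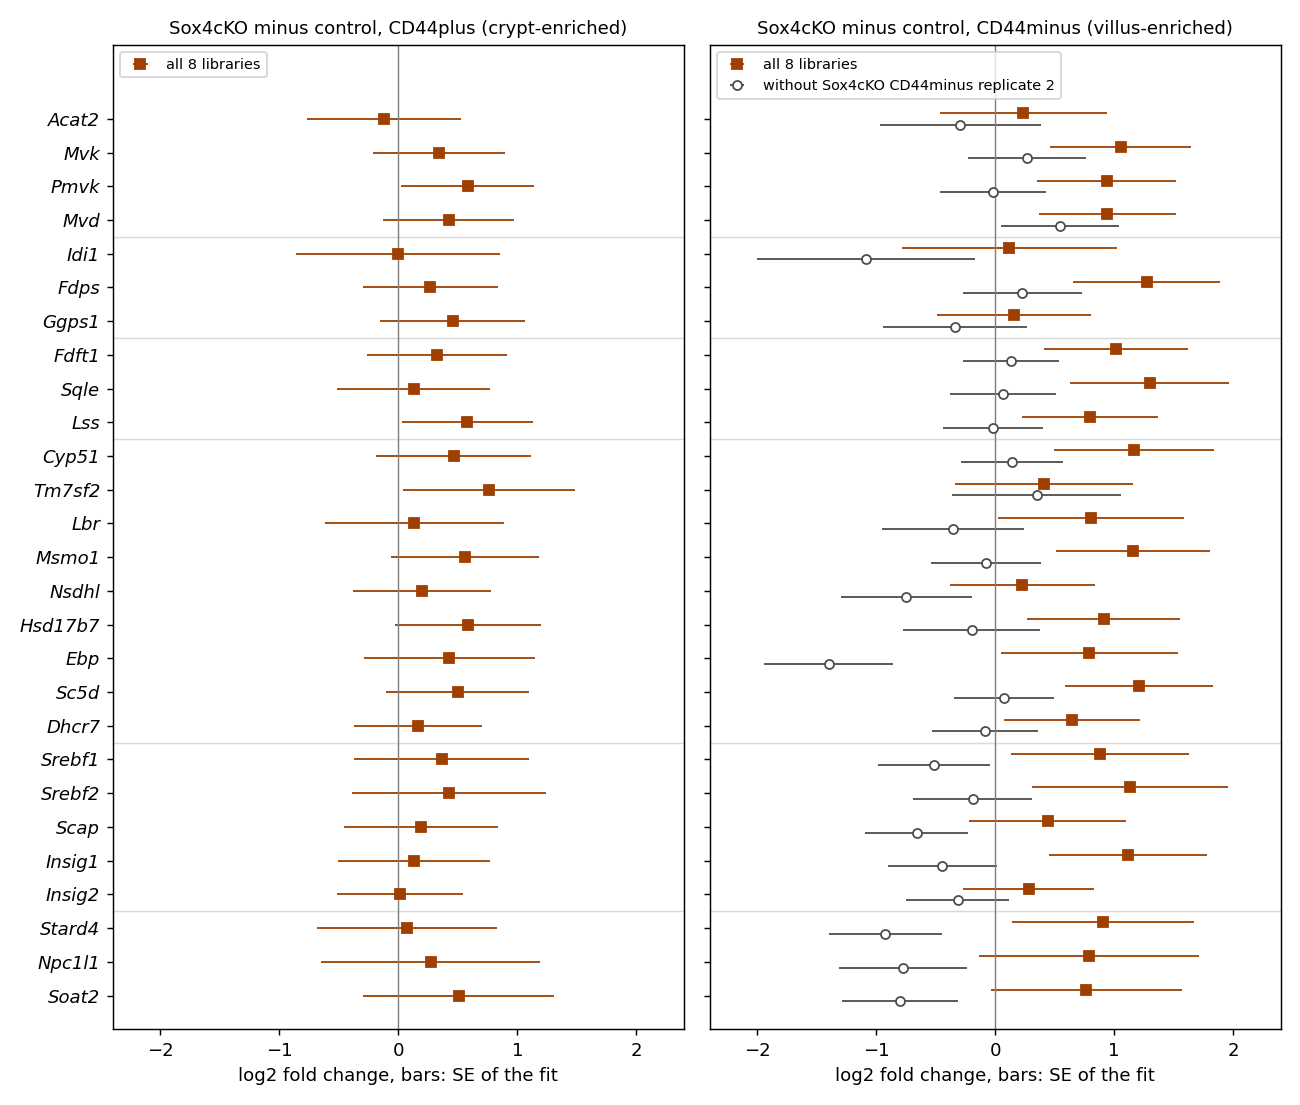
Log2 fold change of Sox4cKO against control for each of the 27 counted genes, with bars for 1 SE of the fit, in CD44plus (left) and CD44minus (right). In CD44plus 25 of 27 points lie right of 0 with bars mostly crossing it, and in CD44minus all 27 filled points lie right of 0 but 19 of the 27 open points, fitted without Sox4cKO CD44minus replicate 2, lie left of it.

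How the pathway differs between crypt-enriched and villus-enriched cells was read first in control animals. Lbr was 9.19-fold higher in CD44plus than in CD44minus (log2 fold change 3.20, SE 0.83, edgeR adjusted p = 0.0495) and was the 1 pathway gene of 27 that passed, beside 2.01% of all genes called higher and 0.445% called lower. Npc1l1 and Soat2 had the opposite sign, 5.17-fold (-2.37, SE 0.97, edgeR adjusted p = 0.17) and 5.75-fold lower (-2.52, SE 0.84, edgeR adjusted p = 0.112), and did not pass in this fit, which leaves out that both gates come from the same animals. With the animal as a random block in limma-voom, Soat2 (-2.37, adjusted p = 0.0286) and Npc1l1 (-2.33, adjusted p = 0.0431) passed beside Lbr (3.25, adjusted p = 0.0233), where 4.63% of all genes were called higher and 6.02% lower. With the animal as a fixed block in edgeR, Lbr (adjusted p = 0.0067) and Soat2 (adjusted p = 0.0409) passed and Npc1l1 (adjusted p = 0.113) did not, where 7.37% of all genes were called higher and 10.5% lower. The other synthesis genes had smaller, mostly positive estimates, such as Acat2 (1.50, SE 0.69), Sqle (1.35, SE 0.67), Fdps (1.33, SE 0.61) and Srebf2 (1.30, SE 0.83).

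Of the 27, 23 had a positive estimate in control, beside 47.2% of all genes, and the median was 0.67 against -0.19. The exceptions were Tm7sf2 (-0.48, SE 0.75), Insig2 (-0.17, SE 0.54), Npc1l1 and Soat2. Both CD44plus libraries lay above both CD44minus libraries for 20 of the 27, beside 38.7% of all genes, and below them for Npc1l1 and Soat2, beside 41% of all genes. In the fit of the 4 control libraries alone, 10 passed as higher (24.4% of all genes) and 2 as lower (30.4%). Those higher were Acat2, Cyp51, Dhcr7, Ebp, Fdps, Insig1, Lbr, Scap, Sqle and Srebf2, and those lower Npc1l1 (-2.56, SE 0.55, edgeR adjusted p = 3.06e-05) and Soat2 (-2.73, SE 0.43, edgeR adjusted p = 7.31e-09).

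The call of Lbr was close to the threshold. Its edgeR adjusted p was 0.512 and 0.37 without control CD44minus replicate 1 or 2, 0.249 and 0.304 without control CD44plus replicate 1 or 2, and 0.0673 without Sox4cKO CD44plus replicate 2, with a log2 fold change of at least 2.62 each time. Without either Sox4cKO CD44minus library, 11 of the 27 passed as higher and 2 as lower (24.1% and 12.3% of all genes without replicate 1, 22.8% and 11.8% without replicate 2).

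In Sox4cKO animals the same 3 genes had estimates furthest from 0. Lbr was 5.76-fold higher in CD44plus (2.53, SE 0.80, edgeR adjusted p = 0.107), Npc1l1 7.39-fold lower (-2.89, SE 0.99, edgeR adjusted p = 0.14) and Soat2 6.89-fold lower (-2.78, SE 0.85, edgeR adjusted p = 0.0929). None of the 27 passed in the fit without the animal, beside 1.66% of all genes called higher and 0.93% called lower, and 3 of 27, these same ones, had an unadjusted p under 0.05 (17.7% of all genes). DESeq2 called all 3 (3.52% of all genes higher, 5.12% lower). With the animal as a random block in limma-voom, Lbr (adjusted p = 0.0307) and Soat2 (adjusted p = 0.0432) passed, beside 2.88% of all genes higher and 2.53% lower. With it as a fixed block in edgeR, Lbr alone passed (adjusted p = 0.0314), beside 3.95% and 4.43%. Both gates were free of overlap for these 3 and for Acat2, Dhcr7, Ggps1 and Scap, the 4 others with CD44plus higher: 5 higher in all, beside 21.1% of all genes, and 2 lower, beside 16.2%. A positive estimate was found for 18 of 27, beside 39.8% of all genes, with a median of 0.25 against -0.48. Without Sox4cKO CD44minus replicate 2 the median was 1.38 and 14 passed as higher and 2 as lower (25% and 16% of all genes), while without replicate 1 just 6 were positive (53.9% of all genes), the median was -0.25 and 1 passed as higher and 3 as lower (8.45% and 8.25%).

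**Figure D3:**
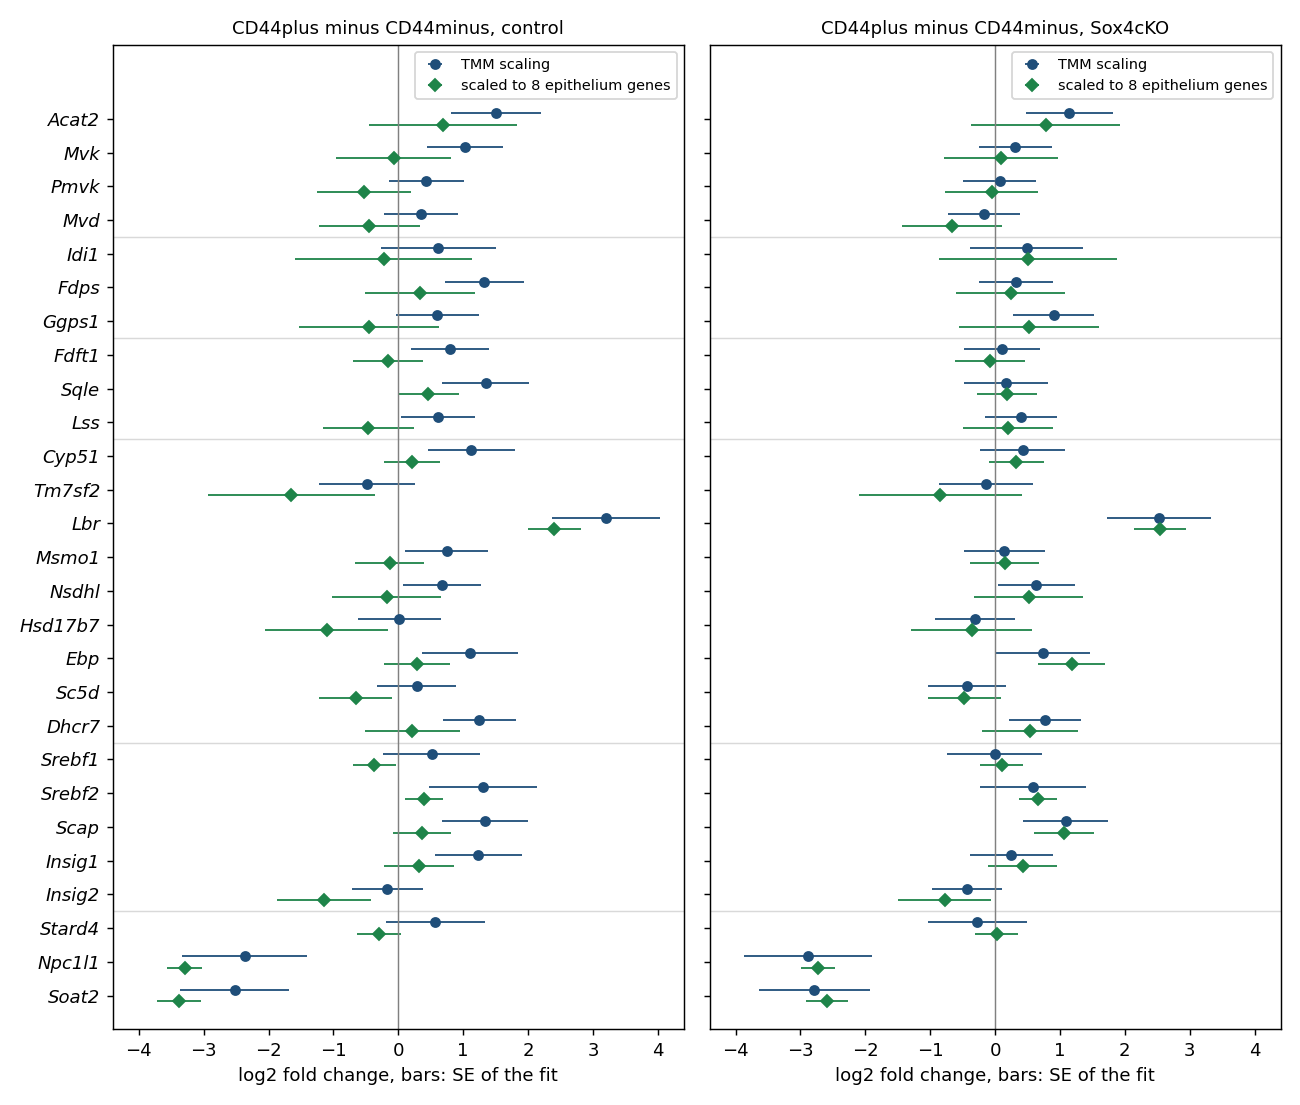
Log2 fold change of CD44plus against CD44minus for the 27 counted genes in control (left) and Sox4cKO (right), with bars for 1 SE, under TMM scaling (circles) and scaled to 8 epithelial genes (diamonds). Lbr lies right of 2 and Npc1l1 and Soat2 left of -2 under both scalings and in both genotypes, while in control the median of all 27 moves from 0.67 to -0.18.

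In control, the sign of the gate difference depended on the scaling for much of the pathway, and not for Lbr, Npc1l1 and Soat2. In Sox4cKO the sign changed with the scaling for Fdft1, Pmvk, Srebf1 and Stard4 only. Summed CPM of the 8 epithelial genes was 2471 and 4902 against 2327 and 14992 in CD44minus, and 6944 and 6625 against 7393 and 6475 in CD44plus. Under TMM scaling 8 of these 8 had a positive estimate in control (median 0.80), beside 47.2% of all genes. In Sox4cKO 2 of the 8 did (median -0.26), beside 39.8% of all genes. None of the 8 passed, and whether they are an even reference between the gates was not tested. Scaled to these genes, 10 of 27 were positive in control (26.3% of all genes) with a median of -0.18, while the median of all genes moved to -1.20. In Sox4cKO, 18 of 27 were positive (32.6% of all genes) with a median of 0.18, against -1.01 for all genes. DESeq2 size factors moved the median of all genes less, from -0.19 to -0.52 in control and from -0.48 to -0.72 in Sox4cKO. Under epithelial scaling Lbr was at 2.41 in control (edgeR adjusted p = 0.00504) and at 2.54 in the knockout (edgeR adjusted p = 0.00384). Npc1l1 was at -3.29 (edgeR adjusted p = 3.28e-05) and -2.73 (edgeR adjusted p = 0.000151), and Soat2 at -3.38 (edgeR adjusted p = 0.000154) and -2.59 (edgeR adjusted p = 0.000962). All 3 passed in both genotypes there, and no other of the 27 did. Of all genes, 1.26% were called higher and 2.77% lower in control, and 1.71% and 2.09% in Sox4cKO.

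Per 1000 reads on the epithelial genes, Lbr was at 4.36 and 6.74 against 7.66 and 3.96 in CD44minus and 29.9 and 30.3 against 27.8 and 37.4 in CD44plus. Npc1l1 was at 145 and 123 against 122 and 92.2 in CD44minus and 15.3 and 12.1 against 18.2 and 14 in CD44plus, and Soat2 at 46.3 and 50.3 against 44.9 and 34 in CD44minus and 4.002 and 5.29 against 5.07 and 7.99 in CD44plus. On this scale Sox4cKO CD44minus replicate 2 no longer stood above the other CD44minus libraries for any of the 3. Sqle, by contrast, was at 7.36 and 6.82 against 11.9 and 6.65 in CD44minus and 9.82 and 9.68 against 11.2 and 9.59 in CD44plus. In control its CD44plus libraries lay above its CD44minus libraries without overlap, and in Sox4cKO the gates overlapped through 1 library, CD44minus replicate 1, where Sqle had 56 reads, 15.2% of them at the background density. T cell markers were summed at 207 to 907 CPM in the CD44minus libraries and 2176 to 5767 CPM in the CD44plus libraries, and cell cycle genes at 360 to 539 CPM and 4085 to 5073 CPM. The part of either in the level of Lbr was not tested. Enterocyte markers went with Npc1l1 and Soat2, at 15671 to 82043 CPM in CD44minus and 3476 to 4748 CPM in CD44plus.

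**Figure D4:**
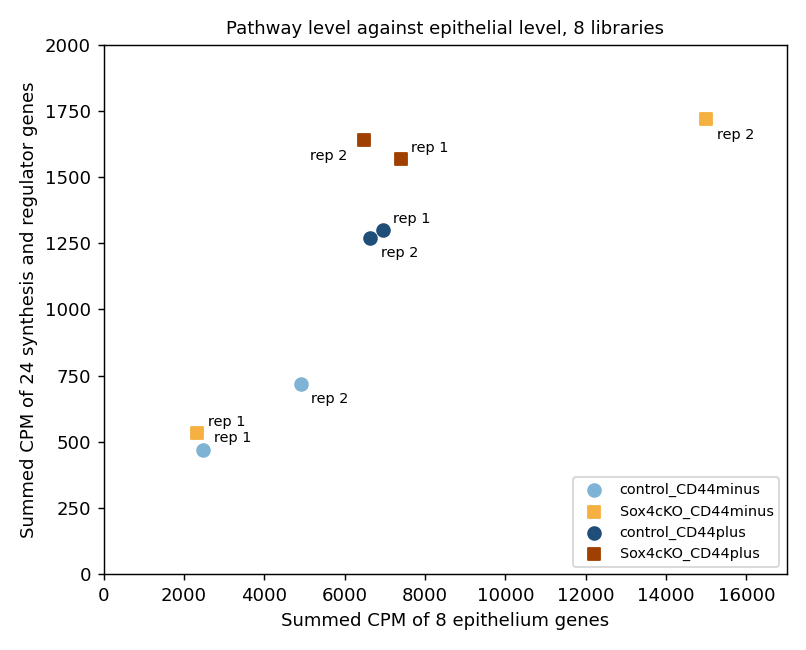
Summed CPM of the 24 counted synthesis and regulator genes against summed CPM of 8 general epithelial genes, 1 point per library. The 4 CD44plus libraries lie together, the Sox4cKO ones at 1567 and 1638 CPM above the control ones at 1298 and 1272 CPM. The CD44minus libraries spread from 471 to 1720 CPM. Both sums of a library are divided by the same TMM factor, 0.527 to 1.72 in CD44minus. That factor alone moves a point along both axes together.

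Whether the knockout effect differed between the gates was tested as an interaction. None of the 27 and none of all genes (0%) passed edgeR's test, and 0 of 27 had an unadjusted p under 0.05 (0.245% of all genes). DESeq2 and limma-voom also called 0 of 27. Estimates (CD44plus effect less CD44minus effect) were positive for 2 of 27, beside 34.9% of all genes, with a median of -0.52 against -0.37 for all genes. The sign followed Sox4cKO CD44minus replicate 2: without it 26 of 27 were positive (52% of all genes) with a median of 0.60, and scaled to the epithelial genes 24 of 27 were positive (60.8%) with a median of 0.33.

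Neighbouring lipid pathways, listed with earlier results of these data known, were set beside the cholesterol genes. In CD44plus, Sox4cKO against control, none of their genes passed edgeR's test, and 11 of 14 genes of SREBP transport and processing (median 0.05), 10 of 18 of fatty acid synthesis (0.02), 4 of 10 LXR targets (-0.01), 10 of 12 of sterol trafficking (0.23), 3 of 7 oxysterol enzymes (-0.02) and 5 of 14 isoprenoid users (-0.05) had a positive estimate, beside 49.9% of all genes. The median over the cholesterol genes was 0.34. Scd2, a desaturase gene that SREBPs control, was at 45.8 and 48.8 against 67 and 94.2 CPM. Scarb1, a lipoprotein receptor, was at 17.8 and 28.1 against 8.39 and 12.7 CPM, the largest negative estimate of its list (-1.12, SE 0.72).

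Between the gates, several single genes of these lists passed, read against 2.01% of all genes called higher and 0.445% called lower in control, and 1.66% and 0.93% in Sox4cKO. In control, Fads2 (3.10, SE 0.76, edgeR adjusted p = 0.0404) and Elovl5 (2.47, SE 0.63, edgeR adjusted p = 0.0466), which desaturate and lengthen polyunsaturated fatty acids, were higher in CD44plus, 2 of 18 in the fatty acid list with none lower. Coq2 of ubiquinone synthesis (2.53, SE 0.62, edgeR adjusted p = 0.0392) was the 1 gene of 14 isoprenoid users that rose, although all 14 estimates were positive (median 0.97). Arl4c, an LXR target, was higher too (2.51, SE 0.65, edgeR adjusted p = 0.0497), 1 of 10 in its list. No gene of the SREBP transport list (11 of 14 positive) or the sterol trafficking list (9 of 12 positive) passed.

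Soat1 and Sult2b1 were the 2 genes of the oxysterol list, of 7, that passed in control. Soat1, the widely expressed counterpart of Soat2, was at 22.2 and 20.4 against 16.3 and 29.7 CPM in CD44minus and 208 and 222 against 139.7 and 196 CPM in CD44plus. It rose in CD44plus in control (3.33, SE 0.73, edgeR adjusted p = 0.0256), and likewise in the knockout (2.86, SE 0.71, edgeR adjusted p = 0.0403), opposite in sign to Soat2. T cell markers were higher in the same CD44plus libraries, and their part in Soat1 was not tested. Sult2b1, a sterol sulfotransferase, fell in CD44plus in both genotypes (-2.67, SE 0.69, edgeR adjusted p = 0.0494 in control, -3.33, SE 0.70, edgeR adjusted p = 0.0204 in Sox4cKO). In Sox4cKO, Fads1 (2.95, SE 0.75, edgeR adjusted p = 0.0422) and Arl4c (3.14, SE 0.66, edgeR adjusted p = 0.0203) rose in CD44plus, and Abca1, the sterol exporter (-2.30, SE 0.58, edgeR adjusted p = 0.043), fell.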

How the data were processed

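Raw read counts per gene symbol, 1 table per library, were deposited by the authors. Per the submitters' processing notes, the build was mm10 and the tools were HTSeq 0.6.1p1, STAR 2.2.5b, Trimmomatic 0.36 and bcl2fastq 2.17.4; the strand setting is not given in the sources used here. HTSeq's summary lines stayed out of all totals. Reads counted to no gene came to 64.6 to 96.6% of uniquely placed reads. In CD44minus they were 96.3 and 92.0% (control) against 96.6 and 76.8% (Sox4cKO), and in CD44plus 64.6 to 79.3%.

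The 8 libraries were fitted as 4 groups with edgeR 4.0.16 (R 4.3.3): TMM factors (0.527 to 1.72), filterByExpr with a minimum count of 10, the quasi-likelihood test, and Benjamini-Hochberg adjustment over 20427 genes at 0.05. There were 5 comparisons. Alternatives were DESeq2 1.42.0, limma 3.58.1 (voom), DESeq2 size factors, no filter, only the groups compared, subtracted background reads and each library left out. Scaling to 8 epithelial genes was chosen after seeing the data. Scripts were tested on simulated data.

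The genes were listed by function and no measured value selected them, but they and the other lists were chosen with earlier results of these data known. All 28 pathway genes are named. Values in every library are given for regulators and for genes whose groups do not overlap or that pass a test, and up to 3 genes of each other list are named, by smallest p. Per-kb levels use the longest basic GENCODE transcript. Each table name holds an animal number, shared by the 2 gates of 1 animal. Deviations from group means, correlated between gates across genes, gave 0.102 in control and 0.493 in Sox4cKO. Control and Sox4cKO libraries share only a number. P-values of the main fit rest on a spread between animals that all 4 groups share, with 2 animals a group. The common coefficient of variation between replicates was 0.616 there, against 0.335 in the fit of the 4 CD44plus libraries alone. Between the gates, the main fit treats 2 libraries of 1 animal as independent.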

Additional observations from a re-analysis of the deposited data

How the results depend on the processing

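Over the 5 comparisons, no alternative called any of the 27 genes in CD44plus for Sox4cKO against control, or in the interaction. For Sox4cKO against control in CD44plus, 17 genes of the whole table passed in the fit of those 4 libraries, and 0 to 24 with 1 library left out. In CD44minus the same comparison gave 0 to 7613 genes and 0 to 21 of the 27 with 1 library left out, and a median from -0.20 to 1.50; scaled to the epithelial genes the median was -0.11 and Npc1l1 stood at -0.33. For CD44plus against CD44minus in control, 502 genes passed, and 994 without the filter, 2199 by DESeq2, 9877 in the 4 libraries, 1961 with background subtracted and 824 with epithelial scaling, where the median was -0.18. Of the 27, 3, 12, 3 and 3 passed by DESeq2, in the 4 libraries, with background subtracted and with epithelial scaling. Leaving out 1 library gave 0 to 7362 genes and 0 to 13 of the 27. In Sox4cKO, 529 genes passed, and 884 without the filter, 1765 by DESeq2, 0 in the 4 libraries and 1839 with background subtracted. Of the 27, 3 passed by DESeq2, 4 with background subtracted and 3 with epithelial scaling. With DESeq2 size factors 1 passed. No count over all genes is given here for that fit, so this 1 cannot be set against a share of all genes. Leaving out 1 library gave 11 to 8440 genes, 0 to 16 of the 27 and a median from -0.25 to 1.38. In the interaction, leaving out 1 library gave 0 to 254 genes and a median from -1.13 to 0.60, and epithelial scaling gave a median of 0.33. With 1 library left out, log2 fold changes in CD44plus by genotype ran from -0.28 to 0.067 for Acat2, -0.081 to 0.34 for Insig1 and -0.16 to 0.53 for Npc1l1, in CD44minus from -0.19 to 1.78 for Srebf2 and -0.77 to 1.50 for Npc1l1, and between the gates of control from -0.41 to 0.029 for Insig2.

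The animal pairs the gates. With the animal as a random block (limma-voom), 2176 genes and 3 of the 27 (Lbr, Npc1l1 and Soat2) passed between the gates in control, and 1105 genes and 2 of the 27 (Lbr and Soat2) in Sox4cKO. With it as a fixed block (edgeR), 3659 genes and 2 of the 27 (Lbr and Soat2) passed in control, and 1712 genes and 1 of the 27 (Lbr) in Sox4cKO. No other of the 27 changed its call between the gates against the main fit. The limma-voom fit differs from the main fit in method as well as in the block. DESeq2, without a block, called Lbr, Npc1l1 and Soat2 in Sox4cKO. The cause of the changed calls was not tested. Fits of fewer libraries hold fewer samples, and a group left with 1 library is assumed to vary like the others. Depth limits the genes with few reads in the shallow CD44minus libraries: Acat2 and Idi1 had 6 reads each in control replicate 1.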
